A study of Rattus norvegicus with 14 samples.

Results

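The genes of glycolysis, the lactate shuttle and the tricarboxylic acid (TCA) cycle were followed in RNA-seq of cultured rat hippocampal neurons and astrocytes. The group was a list of 42 gene symbols covering glucose uptake (2 genes), upper glycolysis (11), lower glycolysis (6), lactate and pyruvate metabolism (11) and the TCA cycle (12), and a gene was kept when its mean normalized count was at least 10 in both cultures. All 42 passed in each culture, out of 15314 genes that passed in neurons and 15380 in astrocytes. Both cultures came from embryonic day 18 rat hippocampus and were kept in AM medium, the supplement-reduced condition that the study used as its aging model. Every library, controls included, had therefore been deprived. The AM medium itself differed between the cultures. It was Neurobasal medium with less supplement for neurons, and a DMEM-based medium with charcoal-stripped serum for astrocytes. Neurons on day 10 received AM medium for 4 h and then vehicle (AM-Veh, 0.001% ethanol) or 100 nM allopregnanolone, a neurosteroid (AM-Allo), for 16 h, with 4 libraries in each group. Astrocytes received AM medium for 24 h and then the same vehicle or 100 nM Allo for 24 h, with 3 libraries in each group.

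Glycolysis splits glucose to pyruvate in the cytosol, and pyruvate is either reduced to lactate or carried into the mitochondrion, oxidised to acetyl-CoA and passed to the TCA cycle. Many steps are run by paralogs that differ in affinity or regulation and are used to a different extent by neurons and glia. Lactate dehydrogenase (Ldha, Ldhb) and the monocarboxylate transporters (Slc16a1, Slc16a3, Slc16a7) are the proteins of the lactate shuttle, in which lactate is thought to pass from astrocytes to neurons.

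The promoters of 4 members named below are printed. These members are Ldha (lactate dehydrogenase A subunit), Slc16a1 (lactate transporter MCT1), Slc2a1 (glucose transporter GLUT1) and Pfkfb3, which makes the activator of phosphofructokinase. Each is 300 bases around the start of the gene, most of them before it, as given by RefSeq for GRCr8, with the core of the hypoxia response element, ACGTG on either strand, in capitals.
Ldha promoter, chr1:106507842-106508141, plus strand: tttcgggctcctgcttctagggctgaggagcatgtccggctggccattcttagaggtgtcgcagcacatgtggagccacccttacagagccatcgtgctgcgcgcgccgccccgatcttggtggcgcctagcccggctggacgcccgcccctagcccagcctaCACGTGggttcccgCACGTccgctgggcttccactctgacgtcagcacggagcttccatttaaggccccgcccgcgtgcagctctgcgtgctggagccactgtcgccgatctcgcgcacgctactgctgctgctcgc
Slc16a1 promoter, chr2:194812410-194812709, plus strand: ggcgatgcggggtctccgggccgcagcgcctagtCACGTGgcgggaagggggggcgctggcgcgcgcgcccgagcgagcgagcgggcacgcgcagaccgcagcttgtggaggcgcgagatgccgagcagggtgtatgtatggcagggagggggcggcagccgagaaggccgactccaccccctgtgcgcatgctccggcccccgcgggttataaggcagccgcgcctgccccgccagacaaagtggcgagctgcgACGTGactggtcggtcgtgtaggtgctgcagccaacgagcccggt
Slc2a1 promoter, chr5:138002272-138002571, plus strand: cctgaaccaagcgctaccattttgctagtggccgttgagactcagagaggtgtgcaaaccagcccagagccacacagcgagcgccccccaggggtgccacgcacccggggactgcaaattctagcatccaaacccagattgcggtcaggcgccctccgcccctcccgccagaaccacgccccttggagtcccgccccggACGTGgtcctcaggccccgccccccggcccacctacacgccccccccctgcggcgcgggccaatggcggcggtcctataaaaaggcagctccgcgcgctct
Pfkfb3 promoter, chr17:71944683-71944982, plus strand: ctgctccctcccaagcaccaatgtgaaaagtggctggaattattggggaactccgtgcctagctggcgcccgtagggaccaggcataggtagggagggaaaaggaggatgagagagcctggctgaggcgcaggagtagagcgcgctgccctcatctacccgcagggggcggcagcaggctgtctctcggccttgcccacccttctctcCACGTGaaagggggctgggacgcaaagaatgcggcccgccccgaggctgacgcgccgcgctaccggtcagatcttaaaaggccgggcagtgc
ACGTG or its reverse complement CACGT was found in 20 of the 42 promoters listed for 38 members (47.6%), against 19.3% of the 33469 promoters listed for rat genes. The palindrome CACGTG holds the core once on each strand. The cAMP response element TGACGTCA was found in 3 of the 42 (7.14%), against 1.83% of all promoters, and its half-site TGACG in 19 (45.2%) against 21.2%. These shares describe letters in a window, and promoters were not matched on base composition. Slc2a3, Pgk1, Idh3a and Pcx had no promoter in the table.

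The labelled cell types were checked against their markers before the levels were compared. In the neuron libraries Map2 ranged from 23908 to 27068 normalized counts and Tubb3 from 8417 to 11140 (normalized counts as deposited), whereas Tubb3 was between 25.5 and 36.6 in astrocytes. Neuron cultures also held glial RNA, with Gfap between 68164 and 118740 and the oligodendrocyte lineage gene Olig2 between 8416 and 10052. Astrocyte cultures had Gfap between 131338 and 139943, and microglial Aif1 between 153 and 189. Other astrocyte markers were listed higher in the neuron cultures, among them the glutamate transporter Slc1a2 (2251 to 2985, against 129 to 210 in astrocytes), Gja1 (15608 to 19149 against 7904 to 8317) and S100b (15106 to 18995 against 4446 to 5010). Astrocyte cultures also had the neuronal genes Stmn2 between 20946 and 22152 and Gad1 between 1719 and 1948 (692 to 1463 in neurons), and mesenchymal Col1a1 between 21319 and 25406. Summed over the astrocyte marker list, neuron libraries had 226526 to 278382 counts and astrocyte libraries 254763 to 269723, so these ranges overlapped. The summed neuron markers were 50454 to 60704 in neuron libraries and 26445 to 28064 in astrocyte libraries. These sums are set across tables that were normalized separately. A gene's level in a culture is therefore that of a mixture, and more cells of a type cannot be told apart from more RNA per cell.

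Of 15 ratios between members of the same family, 11 did not overlap between the 8 neuron and 6 astrocyte libraries. The 3 phosphofructokinase ratios among them are not independent, and ratios of other gene pairs were not computed, so nothing particular to paralogs is read from this count. Library scaling cancels in a ratio within a library, and gene length cancels where the same ratio is set side by side in both cultures. No test was run across the cultures. Besides cell type, the cultures differed in AM medium and in hours of treatment, and these cannot be told apart in any comparison of the cultures below.

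The glucose transporters were balanced differently. In neurons the GLUT3 gene Slc2a3, the high-affinity transporter of neurons, was at 0.394 to 1.05 counts per count of the GLUT1 gene Slc2a1 (median 0.838). In astrocytes it was at 0.117 to 0.147 (median 0.130). The mean log2 ratio over AM-Veh and AM-Allo libraries together differed by -2.50 (astrocytes minus neurons), a 5.67-fold difference in the ratio. In neurons the mean log2 ratio was -0.65 in AM-Veh and -0.23 in AM-Allo libraries, and in astrocytes -2.96 and -2.93.

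Phosphofructokinase, the committed step of glycolysis, differed between the 2 cultures in the balance of its isoforms Pfkp and Pfkl. The platelet isoform Pfkp was at 1.36 to 1.51 counts per count of the liver isoform Pfkl in neurons, and at 0.230 to 0.256 in astrocytes. Pfkp took 28.3% ± 0.910 (SD, n = 8) of the counts of the 3 isoforms in neurons and 9.35% ± 0.216 (SD, n = 6) in astrocytes. The muscle isoform Pfkm held close shares, a mean of 51.8% in neurons and 52.5% in astrocytes. Of the kinases that make fructose 2,6-bisphosphate, Pfkfb3 had 4.10 to 5.47 counts per count of Pfkfb2 in neurons and 26.9 to 31.6 in astrocytes, a 6.09-fold difference in the mean ratio and the widest of the 15.

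Aldolase C, the brain aldolase, was at 0.280 to 0.337 counts per count of aldolase A in neurons and 0.773 to 0.833 in astrocytes. The enolase ratio did not separate the cultures, although Eno2 is a common neuronal marker. Eno2 took 10.3% ± 1.38 of enolase counts in neurons and 10.9% ± 0.450 in astrocytes (SD, n = 8 and 6). Hexokinase 1 held 92.4% to 93.3% of hexokinase 1 and 2 counts in neurons and 93.1% to 94.9% in astrocytes, so its ranges overlapped.

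In the lactate shuttle, Ldhb, whose product favours lactate oxidation, made 38.6% to 43.1% of lactate dehydrogenase counts in neurons and 32.3% to 34.2% in astrocytes. Slc16a1 was between 1965 and 2726 counts in neurons and between 5434 and 6103 in astrocytes. Slc16a3, the MCT4 gene thought of as the astrocyte exporter, lay near the minimum, between 9.56 and 18.2 counts in neurons and 22.1 and 51.8 in astrocytes. Slc16a7, the MCT2 gene regarded as neuronal, was between 79.1 and 151 in neurons and 174 and 228 in astrocytes. The ratios of both to Slc16a1 overlapped between cultures.

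Of the pyruvate dehydrogenase kinases, which switch off the entry of pyruvate into the TCA cycle, Pdk2 had 1.90 to 2.72 counts per count of Pdk1 in neurons and 4.08 to 4.39 in astrocytes. The catalytic subunit Idh3a of NAD isocitrate dehydrogenase took 39.2% to 40.9% of the counts of its 3 subunits in neurons. In astrocytes it held 30.2% to 32.7%.

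**Figure D1:**
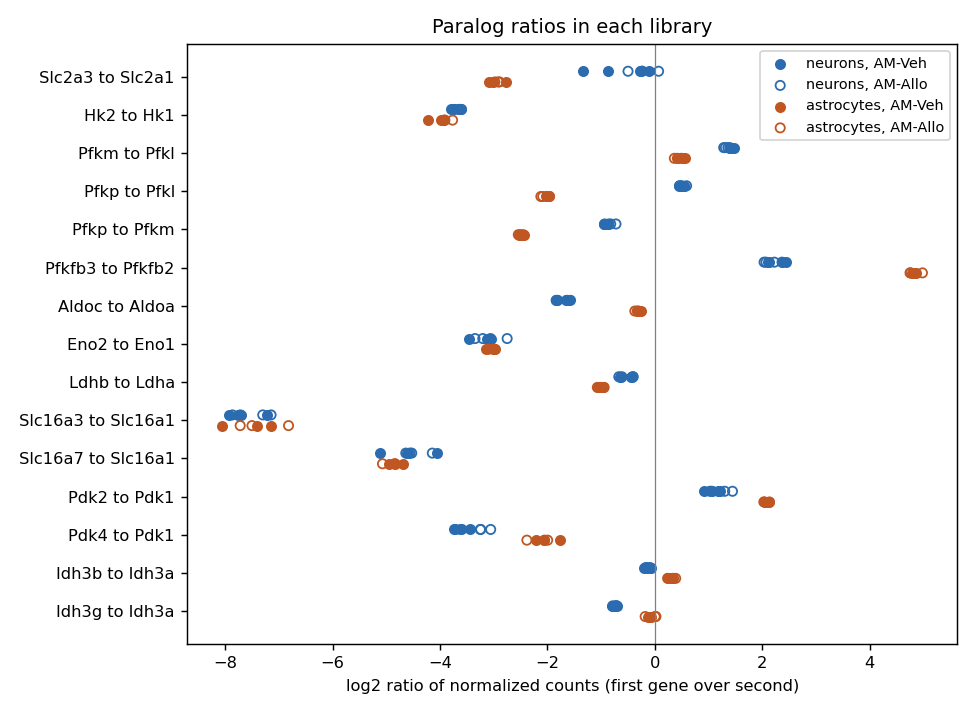
Log2 ratio of normalized counts of the first to the second gene (x axis) for 15 paralog pairs (y axis), 1 point per library, filled for AM-Veh and open for AM-Allo. Neuron and astrocyte points are apart for 11 pairs, and the Slc2a3 to Slc2a1 ratio of neurons runs from -1.34 to 0.07.

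The TCA cycle took a larger part of the members' counts in neurons. Summed counts of the 12 TCA members were 31.4% to 34.7% of those of the 17 glycolysis members in neurons and 20.2% to 21.2% in astrocytes. All members together made 1.04% to 1.09% of counts in neurons and 0.869% to 0.890% in astrocytes. Citrate synthase, which opens the cycle, had a mean of 6582 normalized counts in neurons and 2892 in astrocytes, and mitochondrial malate dehydrogenase Mdh2 had 7012 and 2937. Mitochondrial Idh2, which makes NADPH, had 2448 and 2780. Of the 12 TCA members, 11 had the higher mean in neurons, with ratios of neuron to astrocyte means from 0.881 for Idh2 to 2.39 for Mdh2, set across tables that were normalized separately. Of the other 30 members, 17 had the higher mean in neurons, as did 49.6% of the 14386 genes at the minimum in both cultures.

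With Allo, no member of the 42 passed an adjusted p of 0.05 in either culture (limma, Benjamini-Hochberg over all genes tested). Over all genes, 0.0261% passed in neurons and 0.0065% in astrocytes. The members' median log2 fold change was -0.01 in neurons, beside -0.0015 over all genes, and -0.0016 in astrocytes, beside 0.0014. The median 95% half-width of a member's log2 fold change was 0.113 in neurons, 0.0637 in neurons with the first replicate number as a block, and 0.0883 in astrocytes.

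In neurons, Slc2a3 had the largest difference of the 42 members. It counted 1050, 1018, 1028 and 816 in AM-Veh libraries 1-1, 1-2, 2-1 and 2-2, and 1220, 1064, 1383 and 1295 in the AM-Allo libraries of the same numbers. All 4 AM-Allo libraries lay above all 4 AM-Veh libraries, as did 2.06% of genes. The mean went from 978 ± 109 to 1241 ± 135 (SD, n = 4 each), a log2 fold change of 0.34 with an SE of 0.0945. The exact permutation test (two-sided) gave p = 0.0286, the smallest it can give with 4 libraries against 4. Every gene without overlap gets that value. By limma the adjusted p was 0.589. With the first number as a replicate block the adjusted p was 0.0894. The log2 fold change was 0.14 between the libraries of first number 1 and 0.55 between those of first number 2. In the fit of first number 2 alone, limma gave an adjusted p of 0.00327. That fit set 2 libraries against 2, with the low AM-Veh library 2-2 among them. After adjustment 267 of 15314 genes passed in it, against 4 in the fit of all libraries. Leaving out AM-Veh library 2-2, the lowest, from the fit of all libraries gave 0.26. Neuronal markers differed in both directions, with Tubb3 at a log2 fold change of 0.21 and Map2 at 0.10, while Nefl was at -0.23. The median over the 8 neuronal markers tested was 0.016, and none passed after adjustment. Their summed counts overlapped, at 50454 to 55983 in AM-Veh and 53230 to 60704 in AM-Allo libraries. Their part in the Slc2a3 difference was not tested.

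Slc2a3 was the only member higher in neurons at an unadjusted p under 0.05, a threshold that 3.21% of genes passed upward, and no member was lower, against 2.48% of genes. Ldha was the only member whose groups did not overlap downward, as in 1.89% of genes. Its AM-Veh libraries counted 11691, 11143, 11873 and 11187, and its AM-Allo libraries 11116, 11066, 11039 and 10610. The log2 fold change was -0.07 with an SE of 0.0320 and an adjusted p of 0.880 by limma. The exact permutation test gave p = 0.0286, which follows from the groups not overlapping and is not a second result.

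With the first number as a block, 4 members were lower at an unadjusted p under 0.05: hexokinase Hk1 (log2 fold change -0.05), phosphoglycerate kinase Pgk1 (-0.05), Ldha (-0.07) and the pyruvate dehydrogenase subunit Pdha1 (-0.06). Hk1 counted 8349, 8262, 8545 and 8368 in AM-Veh and 7977, 7917, 8313 and 8261 in AM-Allo. Pgk1 counted 8518, 8367, 8369 and 8263 against 8082, 8273, 8137 and 7802, and Pdha1 5440, 5436, 5134 and 5050 against 5137, 5096, 4853 and 5064. Each group pair overlapped apart from Ldha, and within a first number Hk1 and Pgk1 were lower in both AM-Allo libraries than in both AM-Veh libraries. That is 4 of 42 beside 5.24% of all genes in that fit, and 1 of 42 higher beside 5.76%. None passed after adjustment, beside 0.679% of genes.

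In astrocytes, Gapdh, the enzyme that makes the NADH of glycolysis, was the only member past an unadjusted p of 0.05. Its AM-Veh libraries counted 12461, 13355 and 13682, and its AM-Allo libraries 13085, 11460 and 12188. The groups overlapped, and the log2 fold change was -0.11 with an SE of 0.0485 (limma, adjusted p = 0.709). Leaving out AM-Allo replicate 2 gave -0.06, and the call was lost in 4 of the 6 fits that each left out 1 library, those without AM-Veh replicate 2 or 3 or AM-Allo replicate 2 or 3. At that threshold 3.29% of genes were lower and 3.72% higher.

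Without overlap in astrocytes, Ldha and fumarate hydratase Fh were higher, 2 of 42 beside 6.42% of genes. Ldha counted 10091, 10028 and 10150 in AM-Veh and 10326, 10349 and 10475 in AM-Allo. Pfkp, Pdk2 and Idh2 were lower without overlap, 3 of 42 beside 6.07% of genes. The log2 fold changes of these 5 members ran from -0.05 to 0.08, and an exact permutation test cannot go below p = 0.1 with 3 libraries against 3.

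**Figure D2:**
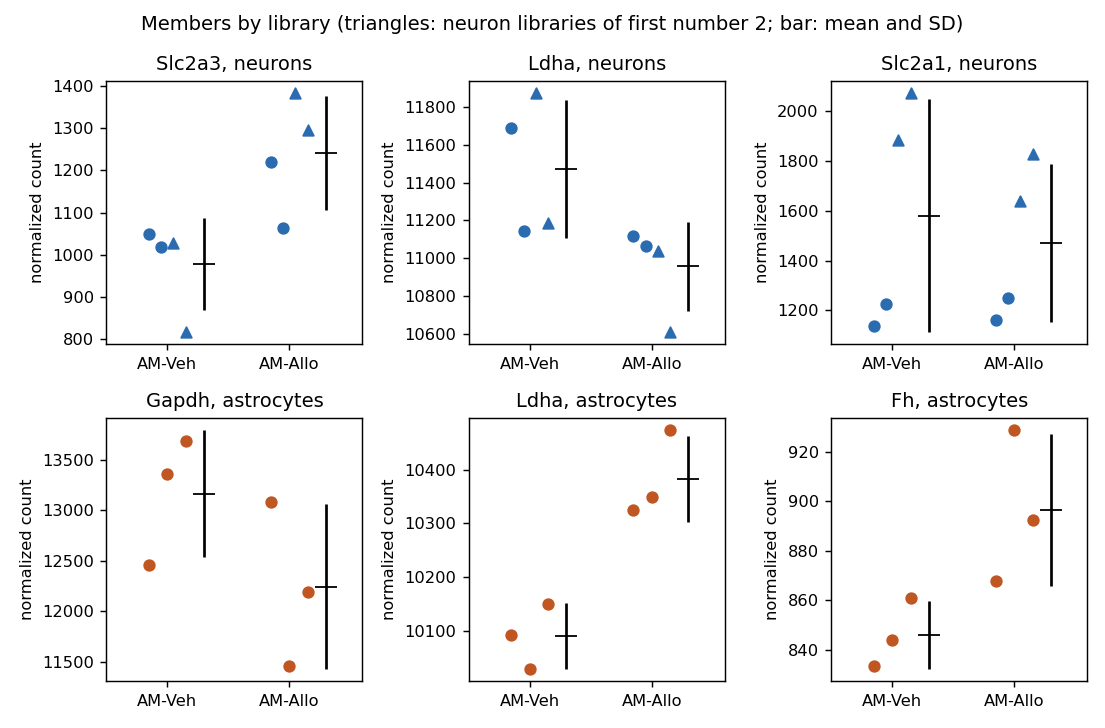
Normalized counts (y axis) of selected members in each library of AM-Veh and AM-Allo, with the mean and SD beside the points and triangles for neuron libraries of first number 2. Axes do not start at 0, and the Ldha groups are apart in both cultures in opposite directions.

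The other genes of energy metabolism were read from 5 lists. Of 26 other glycolysis and TCA genes tested in neurons, 1 was lower at an unadjusted p under 0.05, Dld, the shared E3 subunit of the dehydrogenase complexes (log2 fold change -0.09). Of 12 shuttle genes, Gpd1 was higher (0.26), and of 12 HIF-1 response genes outside glycolysis, Ndrg1 was higher (0.30). No gene of the pentose phosphate (7) or glycogen (10) lists passed in neurons. At that threshold 3.21% of all genes were higher in neurons and 2.48% lower. With the first number as a block, the lactate transporter family gene Slc16a6 (-0.18), the malic enzyme Me2 (-0.09) and the glycogen gene Ugp2 (-0.09) also passed as lower. With that block, 5.76% of all genes were higher and 5.24% lower. In astrocytes, 3.72% of all genes were higher at an unadjusted p under 0.05 and 3.29% lower. There Slc16a4, related to Slc16a6, was lower (-0.50), and Pgls of the pentose phosphate pathway was higher (0.17). Of 13 HIF-1 response genes in astrocytes, Ddit4 (0.23) and Car9 (0.16) were higher and Egln1 lower (-0.16). None of these passed an adjusted p of 0.05, in neurons with or without the block, where Ndrg1 came nearest (limma, adjusted p = 0.0506 with the block).

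More members differed in neurons by the first part of the replicate number than by Allo. The labels do not say what that number marks, and each number holds 2 libraries of each group. In the fit with both terms, 21 of 42 members differed between first numbers 2 and 1 at an adjusted p under 0.05. Of these, 5 were higher in number 2, beside 9.61% of all genes, and 16 were lower, beside 7.61%. The members' median log2 difference was -0.07, against -0.0026 over all genes.

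The members higher in number 2 were Slc2a1 (log2 difference 0.63 ± 0.0539 SE), Slc16a1 (0.35), Pfkfb3 (0.28), Pkm (0.22) and Gapdh (0.11). Slc2a1 counted 1138, 1224, 1162 and 1250 in the number 1 libraries and 1886, 2073, 1639 and 1830 in number 2, with no overlap. The 16 lower members came from glycolysis, lactate and pyruvate metabolism and the TCA cycle, among them Fh (-0.30), Ldhb (-0.23), Aldoc (-0.21), Pfkm (-0.20) and Mdh1 (-0.18).

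Cell type markers moved between the same libraries. The summed astrocyte markers were 226526 to 236929 in number 1 and 255141 to 278382 in number 2. Of the 9 astrocyte markers, 4 were higher in number 2 at an adjusted p under 0.05 and 2 lower, with Gfap at 0.62, Glul at -0.39 and Gja1 at -0.11. The oligodendrocyte lineage sum was 42116 to 45138 in number 1 and 38202 to 38927 in number 2. Of its 7 genes 5 were lower in number 2 and Sox10 was higher (0.53). The mesenchymal list moved most, with a median of -1.43 and Col1a1 at -2.11. Its sums were 988 to 2557 in number 1 and 625 to 778 in number 2. Of its 6 genes 4 were lower in number 2 at an adjusted p under 0.05, and Pdgfrb was higher (0.29). Proliferation markers summed to 2810 to 3186 and 2091 to 2303. Of the 2 endothelial genes tested, Kdr was higher in number 2 by 1.12 on the log2 scale, and Cdh5 was at -0.12. The endothelial sums were low, 32.1 to 44.4 counts in number 1 and 51.9 to 109 in number 2. The part of cell composition in the members' differences was not tested.

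**Figure D3:**
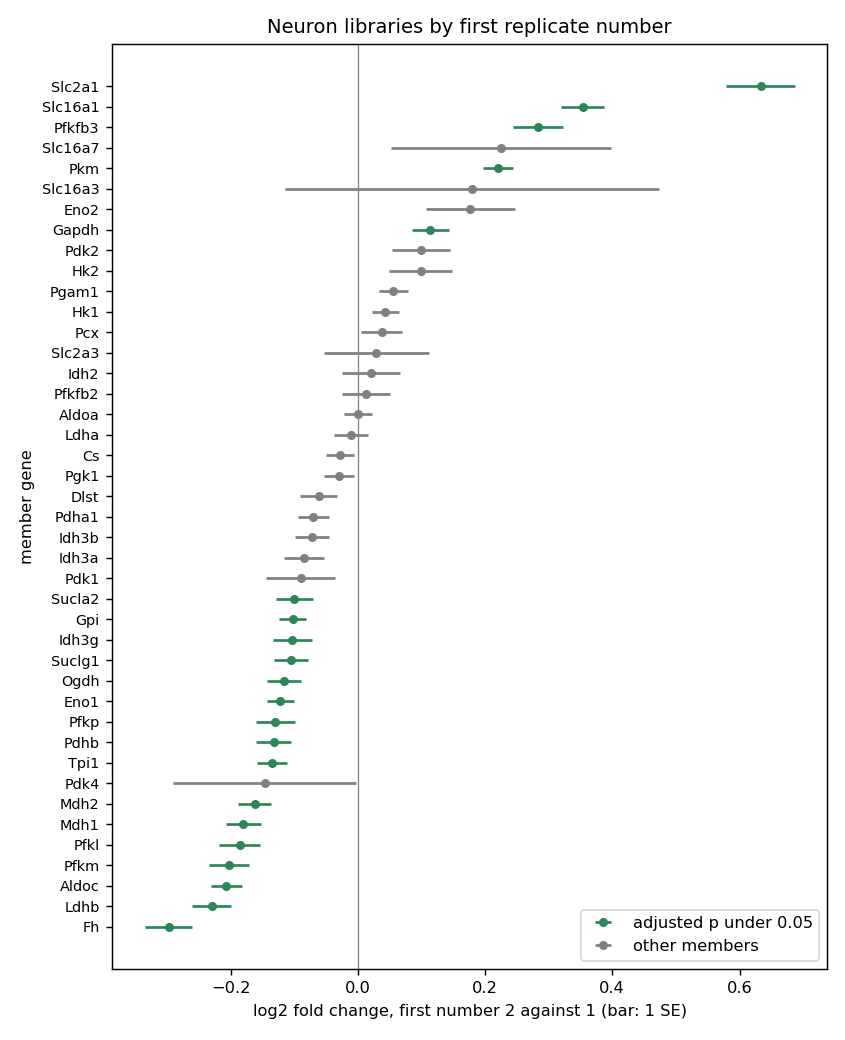
Log2 fold change of first number 2 against 1 (x axis, bars of 1 SE) for the 42 members (y axis, sorted) in neuron libraries. The 21 members in green passed an adjusted p of 0.05, from Fh at -0.30 to Slc2a1 at 0.63.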

How the data were processed

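RNA-seq of 8 neuron and 6 astrocyte libraries was analysed, grouped by cell type, treatment and replicate in the labels. The authors quantified reads with Salmon 0.14 and normalized with DESeq2 1.18.1, and deposited a signal of normalized counts per gene, and VST values on a scale near log2. Neuron VST values had equal means of first numbers 1 and 2 for all 18239 genes (tolerance 1e-06), which the sources used here do not describe. Normalized counts were used as log2(count + 1), so fold changes of low genes are understated. From the step between low values, neuron libraries had 19.5 to 25.2 M reads and astrocyte libraries 22.2 to 28.1 M. Low values were whole multiples of that step (tolerance 0.15 reads) in 60.3% to 92.2% of cases, too few to recover whole reads, so no count test was run. Genes with a mean of at least 10 were tested in each culture alone with limma 3.58.1 in R 4.3.3 (eBayes with trend), unadjusted and Benjamini-Hochberg adjusted. Replicates are not stated to be separate cultures, so p-values measure the spread between these libraries, which may be technical. Members and lists were chosen with earlier results of these data known. Named members were those past an unadjusted p of 0.05, the paralogs, the highest or lowest of a step and those that differed between first numbers; Pcx and Idh3b were matched by synonym or case. In neurons, deviations of same-numbered libraries correlated at 0.229 to 0.296 across genes, and those sharing only the first number at 0.185 to 0.236. These ranges overlapped, so the libraries group by first number, and pairing by whole number is not shown. Others were at -0.319 to -0.150, in part because deviations were centred within each group. In astrocytes, same-numbered libraries did not correlate (-0.00698 to 0.0241). 0 columns were left unused. The tests were tried on simulated data. Alternatives were pseudocount, minimum, VST values, library scaling, eBayes settings, replicate block and leaving out each library.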

Additional observations from a re-analysis of the deposited data

Results flagged for a closer look

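Among 84 neuron groups of 4 libraries tested for a library far from the others, 3 were found, where chance gives about 1 in 20. Slc2a3 in AM-Veh library 2-2 was at 816, with the other 3 at 1018 to 1050, a gap of 0.861 of the group's range. Ldha in AM-Allo library 2-2 was at 10610, with the others at 11039 to 11116, a gap of 0.848. Pcx, the pyruvate carboxylase gene, was at 2602 in AM-Veh library 2-2, with the others at 2374 to 2409, a gap of 0.846.

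Ldha was lower in every AM-Allo neuron library than in every AM-Veh library (log2 fold change -0.066) and higher in every AM-Allo astrocyte library (0.04). The difference between the cultures was not tested.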

How the results depend on the processing

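The count of members differing between first numbers was 19 to 21 without each library, 14 with no trend and 22 with quantile normalization, against 21. Without each library, members higher in neurons stayed at 1, lower at 0 to 2, and past adjustment at 0. In astrocytes these were 0 to 1, 0 to 2 and 0, and the medians ran from -0.0248 to 0.0005 in neurons and -0.0108 to 0.0040 in astrocytes. Over all genes, 4.43% to 6.31% passed the unadjusted threshold in either direction in these neuron fits, and 5.08% to 8.32% in these astrocyte fits. Members lower in neurons came to 5 with VST values and 4 with a replicate block by whole or first number. They came to 4 with VST values and the first-number block (chosen after seeing the data). They were 2 in first number 1 alone and 5 in first number 2 alone. In these settings the share of all genes past the unadjusted threshold in either direction was also above 6.31%. It was 14.4% with VST values and 10.7% to 11.1% in the fits with a block. It was 7.97% in first number 1 alone and 12.5% in first number 2 alone. Members higher were 0 in first number 1 alone and 2 in first number 2 alone, where 1 passed adjustment, Slc2a3. That last fit set 2 libraries against 2, and 267 of 15314 genes passed adjustment in it, against 4 in the main fit. In astrocytes, no member was lower with a minimum of 50, quantile normalization, no trend or the replicate block (0 each), and the median moved to -0.0158 with upper-quartile scaling. Gapdh was not past an unadjusted p of 0.05 in those settings or without AM-Veh replicate 2 or 3 or AM-Allo replicate 2 or 3. Slc2a3 had a positive log2 fold change in neurons in every setting run, and was past an unadjusted p of 0.05 in all but first number 1 alone. The cause of these changes was not tested. Ratios of paralogs kept their direction with AM-Veh libraries alone (30 of 30) and with VST values, where 23 of 30 moved by more than 1 SD. Depth limits Slc16a3 and Pdk4 most.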
